A study of Homo sapiens with 8 samples.

Results

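The knockdown of IGF2BP2 in MOLM13 cells was compared with its control over 4 of the 8 libraries of the study, 2 labelled control and 2 labelled knockdown, which were chosen by their column names in the expression table. MOLM13 is an established human acute myeloid leukemia line of monocytic kind that carries a KMT2A fusion and a tandem duplication in FLT3. Control cells bore the genotype label WT and knockdown cells a label naming depletion of IGF2BP2. The remaining 4 libraries, a rescue and a mutant rescue of the knockdown with 2 each, entered the fit only to share its estimate of the spread, and a few of their values are given beside the knockdown. All groups are described by the same protocol, in which cells were spun with virus and 8 µg/mL polybrene, given fresh medium at 12 h and, where needed, puromycin from 48 h after infection. The labels do not describe the hairpin, do not say whether control cells received an empty or unrelated vector, and do not describe the mutation of the mutant rescue, so effects of infection or selection and of IGF2BP2 loss cannot be told apart here. A single cell line was used, and the labels do not say that replicates were separate cultures, so the spread behind every p-value is that among these libraries and could be purely technical.

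IGF2BP2 is an RNA-binding protein that recognises transcripts carrying N6-methyladenosine, the commonest internal mark of messenger RNA, and is known for stabilising them and aiding their translation. Writers such as METTL3 place the mark, erasers such as FTO remove it, and readers such as the IGF2BP and YTH proteins bind it. In acute myeloid leukemia, blasts divide while their maturation toward monocytes or granulocytes is arrested, and IGF2BP2 is known as a protein on which leukemia cells can depend. The series title joins IGF2BP2 with PRMT6, an arginine methyltransferase that marks histones, and MFSD2A, a transporter of lysophospholipids that carry long polyunsaturated fatty acids.

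Deposited values were log2 values without correction for transcript length, so levels are compared between libraries and not between genes. Read depth is unknown. Of 24407 named genes that were not at exactly 0 in every library, 13016 reached 1 ppm of a library's summed linear values in at least 2 of the 8 libraries and were tested. A low gene could pass this filter through the group in which it is high. Over these genes replicates differed with an SD of 0.212 (log2) in control and 0.148 in knockdown, and no replicate pair was identical. The 10 highest genes held between 3.75% and 7.31% of the linear total in the 8 libraries. The leukemia markers PTPRC, CD33, SPI1, FLT3, HOXA9, MEIS1, LYZ, CSF1R, ITGAM and MPO all passed the filter. Of 50 markers of erythroid, lymphoid, epithelial and stromal cells only 12 passed it, of which 1, the keratin gene KRT18, was called (a log2 change of -0.65, SE 0.13, lower in knockdown). Hemoglobin genes, CD3D, CD3E and COL1A1 were below it. In bulk RNA of this kind, fewer cells of a type and less RNA per cell cannot be told apart.

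The targeted gene was examined first. IGF2BP2 (GRCh38, chr3:185643739-185825056, minus strand, protein coding) had log2 values of 10.94 and 10.89 in control cells and of 10.24 and 10.25 in knockdown cells. Both knockdown libraries lay below both controls, with little spread inside either group. The transcript was 1.59-fold lower on this scale, a log2 change of -0.67 (SE 0.13, n = 2 against 2) with a limma adjusted p of 0.0147. The call rested on all 4 libraries. The limma adjusted p was 0.0661 without replicate 1 of control, 0.0754 without control 2, 0.119 without knockdown 1 and 0.123 without knockdown 2, while the log2 change stayed between -0.70 and -0.64. The gene stood at 11.36 and 11.13 in rescue and at 11.03 and 10.68 in mutant rescue, all above the knockdown libraries. Its paralogue IGF2BP1 had log2 values of 7.33 and 7.14 in control against 6.90 and 7.14 in knockdown, and IGF2BP3 8.40 and 8.24 against 8.62 and 8.71. Neither paralogue passed the test (log2 differences of -0.22, SE 0.14, and 0.34, SE 0.22).

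PRMT6 (chr1:107056679-107067636, plus strand, protein coding) was among the 25 largest decreases of the comparison. Its log2 values were 9.39 and 9.30 in control and 8.20 and 8.08 in knockdown. The groups were far apart relative to their spread, with a log2 change of -1.20 (SE 0.11) and a limma adjusted p of 0.000939. Of 10 arginine methyltransferase genes and partners tested, 5 fell (50%, beside 7.45% of all genes) and 0 rose. The median log2 difference of the 10 was -0.41. CLNS1A, the partner that feeds Sm proteins to the PRMT5 complex, had log2 values of 11.54 and 11.73 in control and 10.64 and 10.65 in knockdown, a change of -0.99 (SE 0.10). The main symmetric methyltransferase gene PRMT5 fell by 0.39 on the log2 scale (SE 0.09), PRMT7 by 0.46 (SE 0.09) and PRMT1, which encodes the major asymmetric enzyme, by 0.42 (SE 0.10). Without either knockdown library, or without control 2, only 2 of the 5 were called.

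MFSD2A (chr1:39955112-39969968, plus strand, protein coding) moved the other way. Its log2 values were 8.51 and 8.53 in control and 9.05 and 8.97 in knockdown, a change of 0.49 (SE 0.13) with a limma adjusted p of 0.0469. In rescue it stood at 8.995 and 8.73 and in mutant rescue at 8.87 and 8.60, so rescue 1 reached the knockdown values and the other 3 lay between both groups. The call lay close to the threshold: the limma adjusted p was 0.139 and 0.162 without control 1 and 2, 0.255 and 0.201 without knockdown 1 and 2, and 0.0507 and 0.0505 without rescue 1 and 2. It was 0.0825 with no filter on low values, 0.0540 with a pseudocount of 32 and 0.0531 after median centring. Of 20 genes of lipid uptake, desaturation and phospholipid remodelling tested, 2 rose and 2 fell, 10% each beside 5.35% and 7.45% of all genes. The other that rose was MBOAT7, an acyltransferase that puts arachidonate into phosphatidylinositol, at log2 values of 9.29 and 9.29 in control and 10.03 and 10.05 in knockdown (0.75, SE 0.11), a call lost without knockdown 1 (limma adjusted p of 0.0719) or 2 (0.0801). Both that fell encode desaturases of polyunsaturated fatty acid synthesis, FADS2 (-0.68, SE 0.13) and FADS1 (-0.49, SE 0.09). FADS1 stood at 10.25 and 10.21 in control and 9.76 and 9.72 in knockdown, with no overlap. Neither desaturase was called without any 1 of the 4 libraries.

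**Figure D1:**
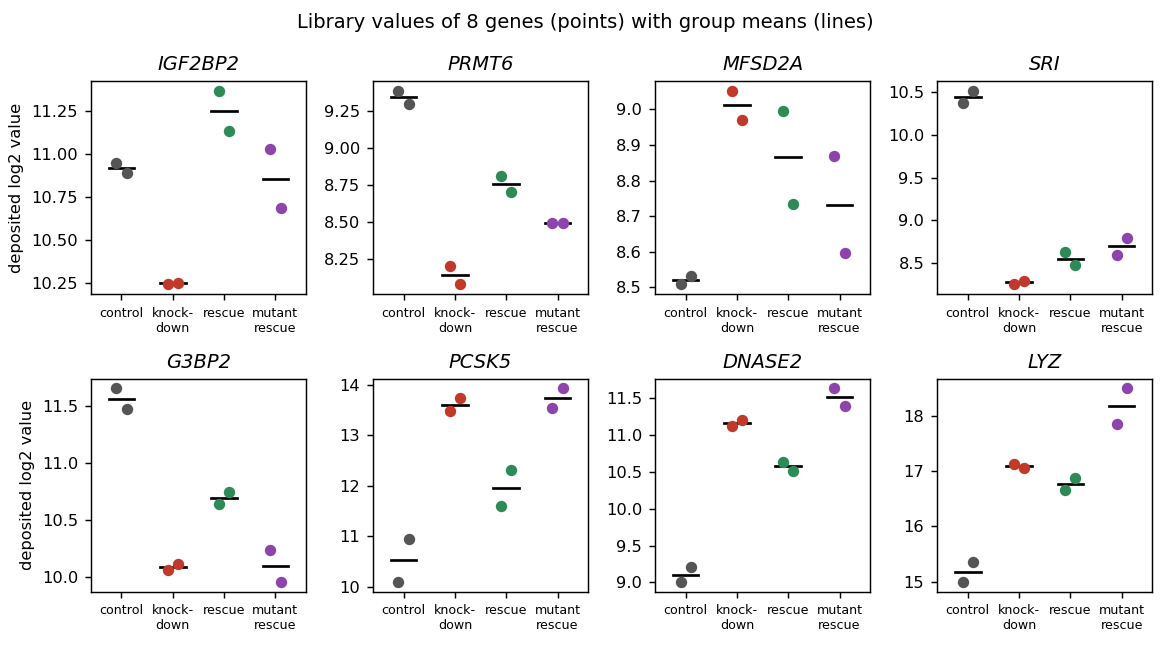
Deposited log2 values of 8 genes in each of the 8 libraries (points, replicate 1 left of replicate 2) with group means (lines). The knockdown libraries of IGF2BP2, PRMT6, SRI and G3BP2 lie below both controls and those of MFSD2A, PCSK5, DNASE2 and LYZ above them, and each panel has its own axis, which does not start at 0.

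Genes that write, erase and read the mark were examined next. Of 11 writer and eraser genes tested, limma called 0, with 1 at an unadjusted p under 0.05 and 0 called in the authors' deposited table, and log2 differences lay between -0.24 and 0.25. METTL3, the catalytic writer, had log2 values of 9.79 and 9.82 in control and 9.74 and 9.72 in knockdown, a difference of -0.08 (SE 0.10). The eraser FTO was at 9.51 and 9.33 against 9.36 and 9.32, so its groups overlapped. Among 11 reader genes 1 fell (9.09%, near the 7.45% of all genes). This was YTHDF2, which targets marked RNA for decay, with a fall of 0.42 on the log2 scale (SE 0.11). The call was lost without any 1 library of the control, knockdown or rescue groups. HNRNPA2B1, a nuclear RNA-binding protein gene, had a difference of -0.46 (SE 0.13) that was called only without control 1 (limma adjusted p of 0.0446) among the fits that left out a control or knockdown library. YTHDF1 and YTHDF3, the paralogues of YTHDF2, had differences of 0.09 (SE 0.32) and 0.14 (SE 0.17).

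Across all genes, 696 (5.35%) were called higher in knockdown and 970 (7.45%) lower at a Benjamini-Hochberg adjusted p under 0.05, the threshold behind every call given here. The median log2 difference of all genes tested was 0.01, of genes called higher 0.60 and of genes called lower -0.53. A change of at least 1 on the log2 scale was reached by 81 of the genes called higher (0.622% of those tested) and 44 of those called lower (0.338%). The libraries of all 1666 called genes were separate between the groups, a pattern that 32.7% of all genes tested showed with higher values and 31.4% with lower values in knockdown. Separate groups given for any called gene are therefore a description and add no support to its call. In the authors' deposited table, which rests on the same libraries and another model, 874 of 24407 genes were higher (3.58%) and 1739 lower (7.13%). Calls fell when any 1 of the 4 compared libraries was left out: 372 higher and 630 lower when control 1 was omitted, 257 and 240 for control 2, 116 and 71 for knockdown 1, and 101 and 78 for knockdown 2 (numbers after a group name are replicates). They also fell without either rescue library, to 581 higher and 766 lower, and increased without mutant rescue 1 (1019 and 1338) or 2 (1018 and 1340).

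**Figure D2:**
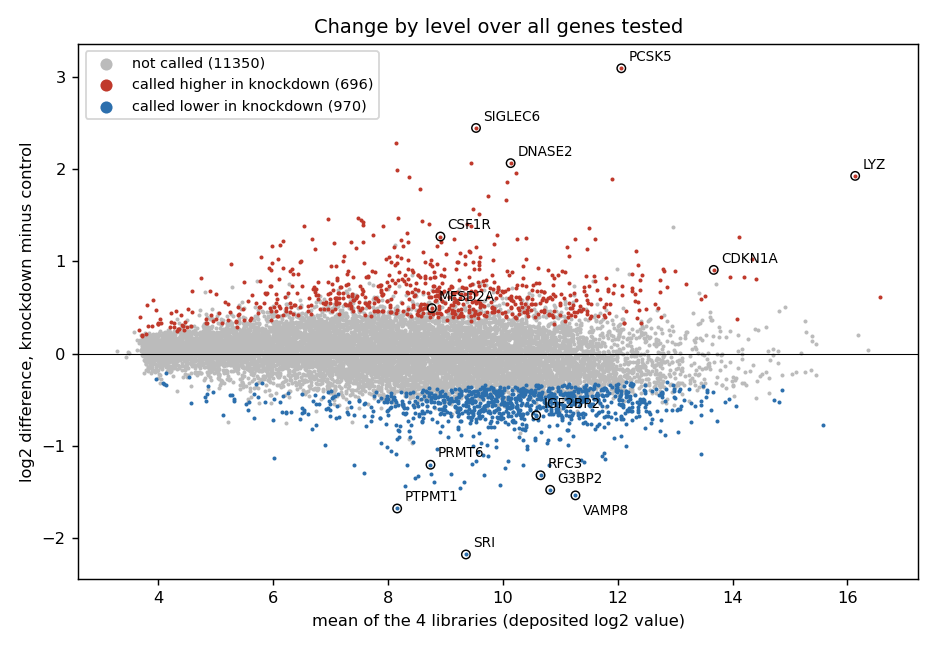
Log2 difference (knockdown minus control, vertical axis) against the mean log2 value of the 4 libraries (horizontal axis) for the 13016 genes tested, with called genes in red (696 higher) and blue (970 lower) and some genes of the text ringed. Changes occur over the whole range of levels, and the smallest called changes shrink toward low levels, where the deposited values lie close together.

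The largest increase was in PCSK5 (chr9:75890644-76362339, plus strand), a proprotein convertase that cleaves precursors of secreted proteins. It had log2 values of 10.09 and 10.95 in control and 13.48 and 13.74 in knockdown, a change of 3.09 (SE 0.31), although its controls were further apart than those of most genes. SIGLEC6, a sialic acid-binding receptor, went from 8.32 and 8.30 to 10.82 and 10.70 (2.44, SE 0.16). The scavenger receptor genes OLR1 (2.28, SE 0.18) and CD36 (1.91, SE 0.15) and the complement gene C3 (2.06, SE 0.23) followed. Further genes among the 25 largest increases were PECAM1, an adhesion molecule of monocytes and endothelium (1.89, SE 0.12), ADA2 (listed as CECR1), a secreted adenosine deaminase (1.66, SE 0.20), IFI30, a thiol reductase of endosomes (1.40, SE 0.10), ALOX5, the enzyme that starts leukotriene synthesis (1.39, SE 0.13), and HP, which encodes haptoglobin (1.45, SE 0.14).

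The largest decrease was in SRI (chr7:88205118-88226993, minus strand), which encodes sorcin, a calcium-binding protein. Its log2 values were 10.37 and 10.52 in control and 8.25 and 8.29 in knockdown, a change of -2.18 (SE 0.12). PTPMT1, a mitochondrial phosphatase of cardiolipin synthesis, had 8.91 and 9.09 against 7.30 and 7.34 (-1.68, SE 0.13). VAMP8, a vesicle SNARE protein, had 11.85 and 12.22 against 10.55 and 10.44 (-1.54, SE 0.15). In each of these the knockdown libraries lay close together and far below the nearer control. Other decreases of this size were in RASGRP2, an activator of RAP1 (-1.42, SE 0.10), the microsomal enzyme gene MGST2 (-1.40, SE 0.12), FADD, the adaptor of death receptors (-1.35, SE 0.13), and TSN, which encodes the nucleic acid-binding protein translin (-1.17, SE 0.11). HENMT1, a small RNA methyltransferase gene, had the widest spread among the 5 largest decreases, at 9.74 and 10.21 in control and 8.09 and 8.96 in knockdown. ARHGAP19-SLIT1 is a read-through locus whose reads cannot be told from those of its parts.

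**Figure D3:**
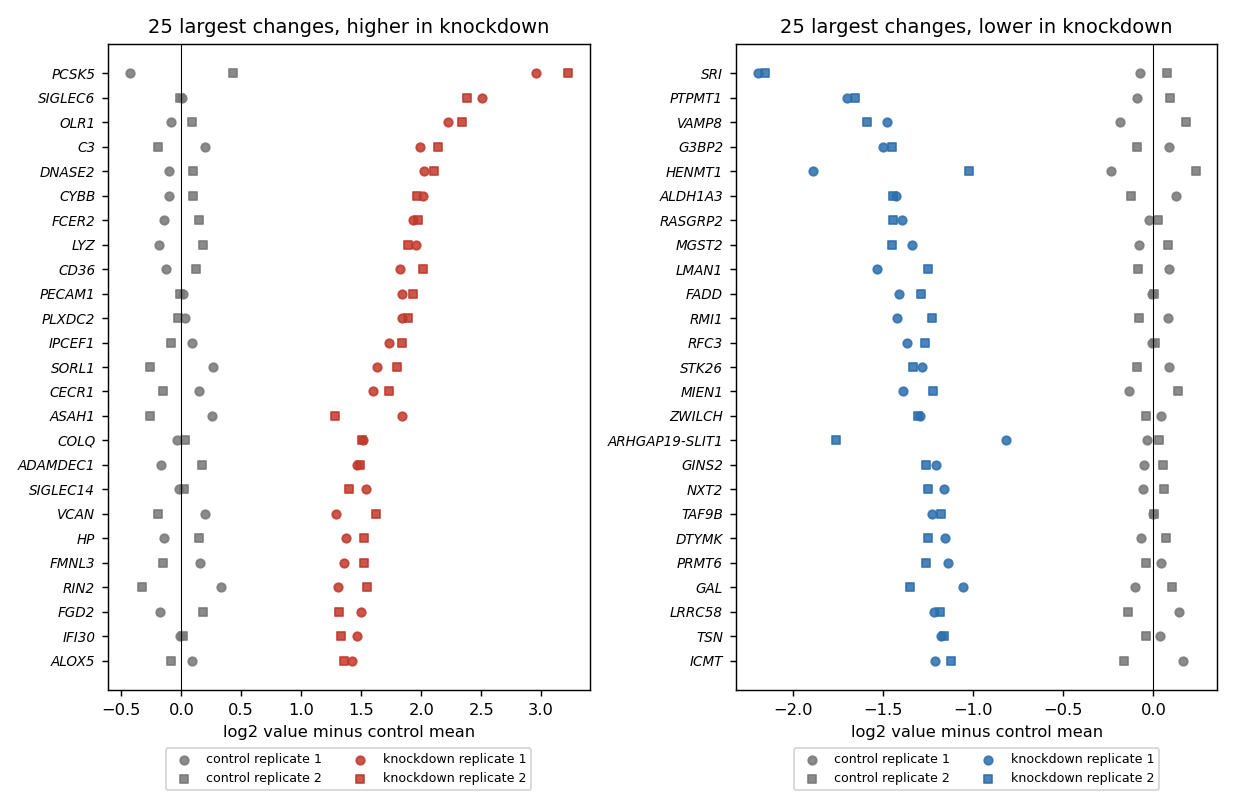
Log2 values of the 25 genes with the largest called increase (left) and decrease (right), each library shown minus the mean of the 2 controls (circles replicate 1, squares replicate 2). PCSK5 stands apart at the top left with knockdown points near 3, SRI at the top right near -2, and HENMT1 and ARHGAP19-SLIT1 have widely separated knockdown libraries.

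Cell cycle genes fell in large number. Of 229 tested from 9 lists that run from replication origins to anaphase, 110 fell, 1 rose and 203 had a negative difference, with a median log2 difference of -0.43 against 0.01 for all genes. The share called lower was 48.0%, beside 7.45% of all genes. With omission of control 1, control 2, knockdown 1 or knockdown 2, in that order, 78, 48, 13 and 13 members were called lower. The median stayed between -0.43 and -0.41 when any 1 of the 8 libraries was left out.

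The first lists are those of DNA replication. Of 27 genes of origin licensing and the replicative helicase, 17 fell and 0 rose. GINS2, a subunit of the helicase that unwinds DNA at forks, had log2 values of 10.60 and 10.71 in control and 9.44 and 9.39 in knockdown (-1.24, SE 0.11). MCM7, a subunit of the MCM ring of the same helicase, had 12.46 and 12.52 against 11.88 and 11.91 (-0.60, SE 0.08), and TIPIN, which steadies stalled forks, 8.51 and 8.67 against 7.79 and 7.83 (-0.78, SE 0.11). The groups were separate in all 3. Among 30 genes of polymerases, the sliding clamp and nucleotide supply 18 fell and 0 rose, with a median of -0.53. RFC3, a subunit of the clamp loader, had 11.31 and 11.33 against 9.95 and 10.05 (-1.32, SE 0.09). Transcripts for 2 steps of thymidylate supply fell, DTYMK (10.88 and 11.02 against 9.79 and 9.70, a change of -1.20, SE 0.12) and TYMS (-0.79, SE 0.10). The clamp gene PCNA fell by 0.65 (SE 0.09). RRM2, the small subunit of ribonucleotide reductase, did not pass the test, with 9.90 and 10.46 in control and 10.60 and 10.41 in knockdown (0.33, SE 0.26). With omission of control 1, control 2, knockdown 1 or knockdown 2, in that order, the calls were 10, 6, 1 and 1 for licensing and helicase genes and 14, 12, 4 and 2 for polymerase and nucleotide genes.

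Of 35 genes of homologous recombination, Fanconi anemia and mismatch repair, 17 fell and 0 rose. RMI1, which works with BLM to dissolve joined DNA, had log2 values of 9.27 and 9.11 in control and 7.77 and 7.96 in knockdown (-1.33, SE 0.14). The exonuclease gene EXO1 (-0.88, SE 0.14), RAD54B (-0.84, SE 0.10) and the checkpoint kinase gene CHEK2 (-0.63, SE 0.10) fell as well. Without knockdown 1 or 2, 4 of these repair genes were called each time, and 9 without control 2.

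E2F proteins switch on replication genes from sites near their starts, so the promoters of the replication and repair genes that fell were searched. Windows of 300 bases, from 250 before to 50 after the start, were taken from RefSeq on GRCh38.p14, and 45 of these 52 genes had one. The E2F letters searched were TTTGGCGC and TTTCCCGC on both strands. A match was present in 13 of the 45 windows (28.9%), in 3.80% of the windows of genes tested and in 2.31% of all 27305 windows. A match is a description of these letters and no evidence of binding. List members that were not called were not counted apart, here or for the motifs below. The shares therefore do not separate called members from the rest of their lists. The windows of RFC3 and GINS2, the largest decreases of their lists, are shown with the match in capitals, 5′ to 3′ along the gene; RFC3 lies at chr13:33817899-33818198, plus strand, and GINS2 at chr16:85688905-85689204, minus strand. Both hold GCGGGAAA, the reverse complement of TTTCCCGC, shortly before the start site.
RFC3: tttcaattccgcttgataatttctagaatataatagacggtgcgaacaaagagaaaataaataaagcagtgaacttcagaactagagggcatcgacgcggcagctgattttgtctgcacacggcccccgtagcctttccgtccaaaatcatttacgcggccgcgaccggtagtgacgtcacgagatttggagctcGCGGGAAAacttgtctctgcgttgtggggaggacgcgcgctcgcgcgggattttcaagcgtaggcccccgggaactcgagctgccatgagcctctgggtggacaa
GINS2: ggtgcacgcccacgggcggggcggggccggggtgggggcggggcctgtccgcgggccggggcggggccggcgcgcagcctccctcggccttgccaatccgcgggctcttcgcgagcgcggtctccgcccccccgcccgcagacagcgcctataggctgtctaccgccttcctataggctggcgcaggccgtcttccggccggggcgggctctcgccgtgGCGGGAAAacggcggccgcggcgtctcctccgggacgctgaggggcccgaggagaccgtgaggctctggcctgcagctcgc

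Mitotic genes fell with them. All 43 kinetochore and spindle checkpoint genes tested had a negative difference, and 25 of them fell, with a median log2 difference of -0.49. ZWILCH, part of the complex that brings dynein to kinetochores, had log2 values of 9.78 and 9.70 in control and 8.44 and 8.44 in knockdown (-1.30, SE 0.10). CENPF, a kinetochore protein of late S phase and mitosis, had 11.32 and 11.21 against 10.27 and 10.31 (-0.97, SE 0.10). SKA3, which helps kinetochores hold microtubule ends, had 11.78 and 11.82 against 11.03 and 11.09 (-0.74, SE 0.09). No library of one group reached the other group's range in these genes. Of 37 mitotic kinase, kinesin and spindle genes 17 fell, among them ASPM (-0.79, SE 0.12) and the spindle assembly factor gene TPX2 (-0.50, SE 0.09). The kinase genes PLK1 (-0.38, SE 0.08) and AURKB (-0.51, SE 0.12) fell, while AURKA had 10.55 and 10.65 against 10.64 and 10.55. The proliferation marker MKI67 did not pass the test, with 10.07 and 9.30 in control and 9.47 and 9.38 in knockdown, so its controls enclosed both knockdown values. Without knockdown 1 or 2, 4 and 5 kinetochore genes and 0 kinase and kinesin genes were called, and without control 2 the counts were 10 and 5.

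Promoters of mitotic genes are known for pairing the CHR element with CCAAT boxes, which NF-Y binds. The CHR letters searched were TTTGAA and those of NF-Y CCAAT, each on both strands, and neither motif contains the other. Of 48 kinetochore, kinase and condensin genes that fell, 40 had a window, of which 25 (62.5%) held the CHR letters and 28 (70.0%) the CCAAT letters. Among the genes tested these shares were 10.1% and 37.0%, and among all windows 15.4% and 35.7%. The windows of CENPF (chr1:214602945-214603244, plus strand) and SKA3 (chr13:21176503-21176802, minus strand) show the matches of both motifs in capitals. CENPF holds 5 matches, 4 of CCAAT or its reverse ATTGG and 1 of CHR after the start site, and SKA3 holds 1, a CHR on the reverse strand at its start site.
CENPF: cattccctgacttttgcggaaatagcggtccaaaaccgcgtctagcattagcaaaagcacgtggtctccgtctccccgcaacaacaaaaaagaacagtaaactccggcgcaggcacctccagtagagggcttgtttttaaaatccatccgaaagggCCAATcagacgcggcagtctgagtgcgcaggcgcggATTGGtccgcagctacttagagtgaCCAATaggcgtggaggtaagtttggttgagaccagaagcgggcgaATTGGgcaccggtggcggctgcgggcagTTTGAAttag
SKA3: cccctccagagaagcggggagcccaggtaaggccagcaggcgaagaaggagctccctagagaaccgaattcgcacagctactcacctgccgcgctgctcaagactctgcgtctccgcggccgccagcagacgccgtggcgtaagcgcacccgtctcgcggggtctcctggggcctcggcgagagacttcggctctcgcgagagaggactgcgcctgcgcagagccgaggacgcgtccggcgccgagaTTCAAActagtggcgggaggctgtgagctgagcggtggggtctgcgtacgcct

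Cyclins and their regulators were mixed. Of 19 cyclin and cyclin-dependent kinase genes 8 fell (42.1%, beside 7.45% of all genes) and 0 rose. CCNE2, the cyclin of the G1/S transition, had log2 values of 10.64 and 10.58 in control and 9.72 and 9.86 in knockdown (-0.82, SE 0.10), and CDK1, the kinase of mitotic entry, had 11.53 and 11.74 against 10.93 and 11.06 (-0.64, SE 0.10). CCNB2 had 11.05 and 11.23 against 10.48 and 10.48 (-0.65, SE 0.10). All 3 were separate between the groups, and the 8 calls were 6, 3, 0 and 1 with omission of control 1, control 2, knockdown 1 or knockdown 2, in that order. The D-type cyclin genes CCND2 (0.37, SE 0.31) and CCND3 (0.36, SE 0.18) and the kinase gene CDK6 (-0.35, SE 0.14) did not pass the test. The 1 cell cycle gene that rose was CDKN1A, which encodes the kinase inhibitor p21. Its log2 values were 13.16 and 13.28 in control and 14.13 and 14.12 in knockdown, a change of 0.91 (SE 0.10) with a limma adjusted p of 0.00167, and it was called also without any 1 of the 4 libraries. Of 25 p53 target genes tested, a list that leaves out CDKN1A, 2 rose, PLK2 (0.58, SE 0.13) and TNFRSF10B (0.42, SE 0.11). This share of 8.0% was near the 5.35% of all genes, while MDM2 had a difference of 0.26 (SE 0.15) that did not pass. Neither of the 2 was called without any 1 of the 4 libraries. Of 18 E2F and RB genes 2 fell (11.1%, not far from the 7.45% of all genes), and 9 differences were above 0 and 9 below. The 2 were LIN9 and E2F8, neither of them called without any 1 of the 4 libraries. E2F1 itself was at 5.88 and 5.72 against 5.61 and 5.67.

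Genes of protein synthesis and folding fell as well. Of 391 tested over ribosomes, translation, amino acid and folding responses, chaperones and the proteasome, 95 fell (24.3%, beside 7.45% of all genes) and 2 rose, with a median log2 difference of -0.29. The controls themselves differed here: the mean log2 value of these genes was 11.22 in control 1, 11.35 in control 2, 11.02 in knockdown 1 and 11.01 in knockdown 2. The members called were 90 without control 1, 19 without control 2, and 3 without either knockdown library in turn, and the median lay between -0.37 and -0.20 when 1 of the 8 libraries was left out.

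Of 59 ribosome biogenesis genes 27 fell and 0 rose. GAR1, a core protein of the particles that modify ribosomal RNA, had log2 values of 9.71 and 9.80 in control and 9.03 and 9.10 in knockdown (-0.69, SE 0.10). UTP4 (listed as CIRH1A), a factor of small subunit assembly, had 12.03 and 11.99 against 11.17 and 11.22 (-0.82, SE 0.12), and UTP18, of the same assembly, 11.03 and 11.08 against 10.42 and 10.46 (-0.61, SE 0.09). Each gene was clearly separate between the groups. The nucleolar helicase gene DDX21 (-0.69, SE 0.11) and LYAR (-0.70, SE 0.11) fell too. The transcription factor MYC, known to drive this program, was at 11.98 and 11.89 in control and 11.72 and 11.76 in knockdown and did not pass the test (-0.19, SE 0.14). Without control 2, 8 of these genes were called, and 0 without either knockdown library.

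MYC and other basic helix-loop-helix proteins bind the E-box, so CACGTG, which reads the same on both strands, was searched in the windows of these genes. A match was found in 9 of 24 ribosome biogenesis genes that fell and had a window (37.5%), in 10.3% of the genes tested and in 7.43% of all windows. UTP18 (chr17:51260296-51260595, plus strand) holds 2 matches, shown in capitals, with 1 before and 1 just after its start site.
UTP18: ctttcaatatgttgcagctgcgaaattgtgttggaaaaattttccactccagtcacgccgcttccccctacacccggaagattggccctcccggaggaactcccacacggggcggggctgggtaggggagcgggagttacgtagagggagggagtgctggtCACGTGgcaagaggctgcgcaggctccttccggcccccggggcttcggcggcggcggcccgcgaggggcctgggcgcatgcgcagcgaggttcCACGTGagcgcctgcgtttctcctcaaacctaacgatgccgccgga

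Ribosomal proteins and chaperones were next. Of 79 cytosolic ribosomal protein genes 76 had a negative difference and 7 fell (8.86%, near the 7.45% of all genes), with a median log2 difference of -0.30. RPS10 was the largest, at 12.43 and 12.58 in control and 11.64 and 11.59 in knockdown (-0.89, SE 0.11). Mitochondrial ribosomal protein genes had 75 of 76 below 0 and 18 called lower, led by MRPL46 (-0.76, SE 0.11). Without control 2, the medians of these lists were -0.16 and -0.20, and 1 and 2 members were called. Heat shock proteins and chaperonins fell in 16 of 30 genes, with HSPD1, the mitochondrial chaperonin, at 13.10 and 13.20 against 12.53 and 12.56 (-0.61, SE 0.09). TCP1, a subunit of the cytosolic chaperonin (-0.56, SE 0.09), and HSPB1 (-0.76, SE 0.14) were among them. The proteasome had 6 of 34 genes called lower, first PSMB5, its chymotrypsin-like subunit, at 10.73 and 10.92 against 9.86 and 9.92 (-0.94, SE 0.11). Chaperone calls numbered 4 without control 2 and 0 without either knockdown library, and proteasome calls 1 in each of these.

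Translation factors fell in 8 of 46 genes, with EIF3I first (-0.76, SE 0.13), and aminoacyl-tRNA synthetase genes in 7 of 22, with FARSA (-0.57, SE 0.10). Serine synthesis and ATF4 target genes fell in 3 of 19, SHMT2 (-0.46, SE 0.10), PSAT1 (-0.51, SE 0.11) and TRIB3 (-0.47, SE 0.13). Endoplasmic reticulum genes parted. LMAN1, the lectin receptor that carries glycoproteins out of the endoplasmic reticulum, had log2 values of 10.11 and 9.94 in control and 8.49 and 8.77 in knockdown (-1.39, SE 0.13). Its partner MCFD2 had 11.10 and 11.01 against 11.42 and 11.50 (0.41, SE 0.10). The partners thus moved in opposite directions, each with separate groups. The reticulum chaperone HSPA5 had a difference of -0.10 (SE 0.10). The MCFD2 call was lost without any 1 of the 4 libraries, and those of translation factors, synthetases and serine genes numbered 0 without either knockdown library and 0, 2 and 0 without control 2.

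**Figure D4:**
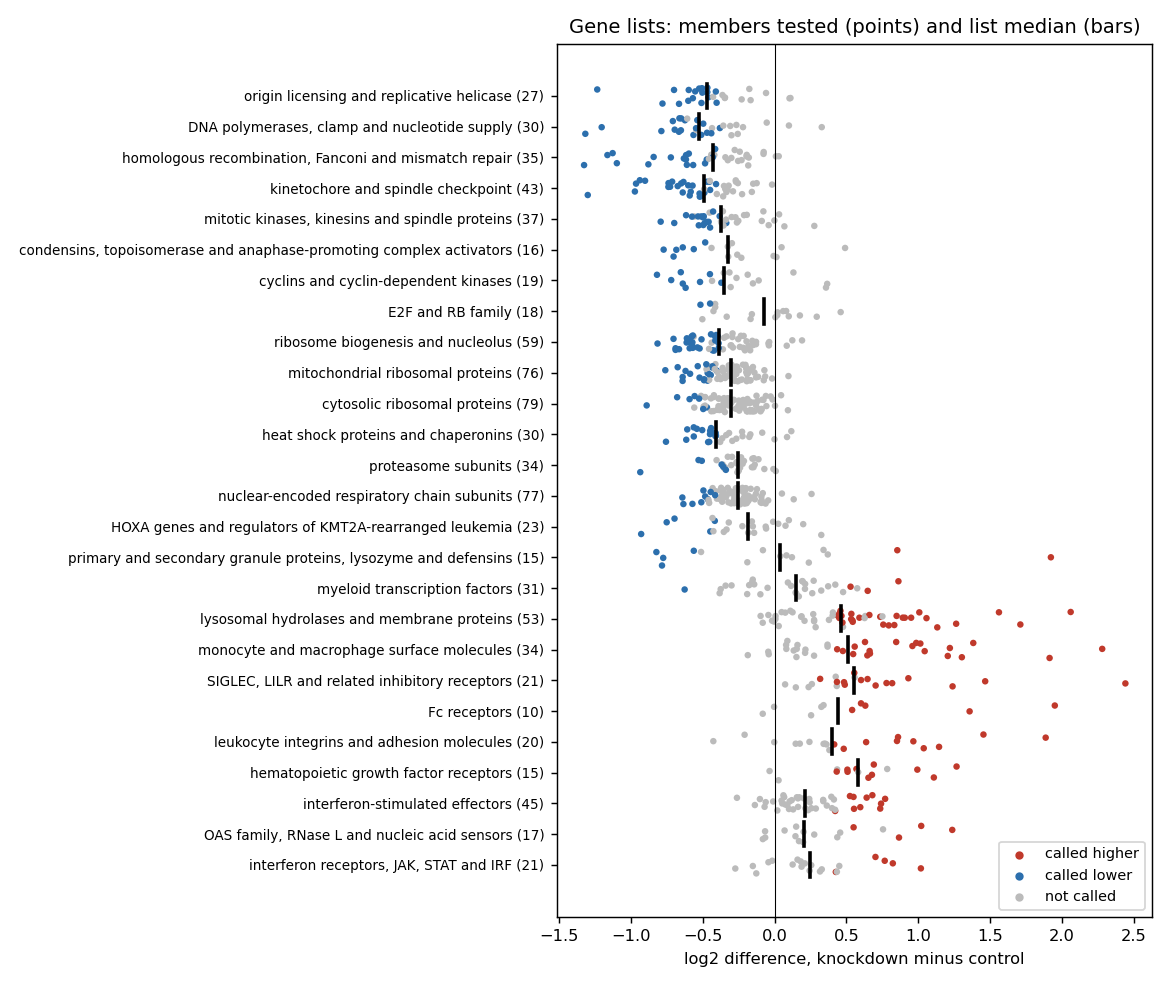
Log2 differences (knockdown minus control) of the tested members of 26 gene lists (points, number tested in brackets) with the list medians (bars). Replication, mitosis and ribosome lists sit left of 0 and contain no called increase, lysosome and myeloid receptor lists sit right of 0 and contain no called decrease, and the granule list has calls on both sides.

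Monocyte and macrophage genes rose in large number. Of 272 tested over surface, granule, lysosome and inflammatory lists, 93 rose (34.2%, beside 5.35% of all genes) and 11 fell, with a median log2 difference of 0.25. With omission of control 1, control 2, knockdown 1 or knockdown 2, in that order, 60, 60, 35 and 29 were called higher. The filter kept 272 of 310 listed genes, and FCGR3A and MRC1 were among those below it.

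Growth factor and cytokine receptors, listed apart from these, rose in 10 of 15 genes (66.7%, beside 5.35% of all genes) and fell in 0. CSF1R, the receptor of the factor that drives monocyte and macrophage growth, had log2 values of 8.33 and 8.24 in control and 9.39 and 9.71 in knockdown (1.27, SE 0.14). CSF3R, the granulocyte factor's receptor, had 11.71 and 11.80 against 12.85 and 12.88 (1.11, SE 0.11), and CSF2RA 10.15 and 10.19 against 10.79 and 10.93 (0.69, SE 0.11). Knockdown libraries exceeded both controls in each. IL10RB (0.68, SE 0.10), IL17RA (0.65, SE 0.12) and IL3RA (0.51, SE 0.11) rose too. The members called were 5, 5, 2 and 3 with omission of control 1, control 2, knockdown 1 or knockdown 2, in that order.

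Surface molecules of monocytes rose in 19 of 34 genes and fell in 0. CLEC12A, an inhibitory lectin of myeloid cells, had log2 values of 7.61 and 7.77 in control and 9.04 and 8.95 in knockdown (1.30, SE 0.12). ADGRE1 (listed as EMR1), an adhesion receptor gene of macrophages, had 5.65 and 5.49 against 6.67 and 6.91 (1.22, SE 0.13). The endosomal scavenger CD68 had 11.91 and 12.09 against 12.86 and 12.82 (0.85, SE 0.10), and the costimulatory ligand CD86 rose by 1.21 (SE 0.14). The classical monocyte marker CD14 did not follow, at 3.99 and 4.25 in control and 4.12 and 4.03 in knockdown (-0.04, SE 0.09), nor did CD163 (0.08, SE 0.10). The integrin gene ITGAM had 5.95 and 5.75 against 6.57 and 5.62, so its knockdown libraries enclosed the controls. Surface molecules called numbered 11 without control 1, 16 without control 2 and 9 without either knockdown library.

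Inhibitory receptors of the SIGLEC and LILR families rose in 14 of 21 genes, and all 21 had higher values in both knockdown libraries than in both controls, a separation that 32.7% of all genes showed. VSIR (listed as C10orf54), a checkpoint ligand, had log2 values of 10.65 and 10.62 in control and 11.86 and 11.89 in knockdown (1.24, SE 0.09). SIGLEC7 (0.93, SE 0.10), LILRB4 (0.82, SE 0.11) and LAIR1 (0.70, SE 0.10) rose too. SIGLEC14 rose by 1.47 (SE 0.15), but it is nearly identical to SIGLEC5 over part of its length, and reads of LILR genes may likewise have been split between copies. Fc receptors rose in 5 of 10 genes, with FCER2, the low-affinity IgE receptor, at 9.12 and 9.41 against 11.19 and 11.23 (1.95, SE 0.11), and FCGRT, which recycles IgG, at 10.72 and 10.94 against 12.19 and 12.19 (1.36, SE 0.12). Integrin and adhesion genes rose in 10 of 20, including the leukocyte integrin genes ITGB2 (0.97, SE 0.13), ITGAX (1.04, SE 0.15) and ITGAL (0.64, SE 0.13). Without knockdown 1 or 2, 4 inhibitory receptor genes were called each time, 2 Fc receptor genes each time and 3 and 2 adhesion genes. Without control 1 and 2 these counts were 9 and 7, 2 and 3, and 8 and 5.

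Effector genes of phagocytes moved both ways. CYBB, the core of the oxidase that phagocytes use to make superoxide, had log2 values of 7.07 and 7.27 in control and 9.18 and 9.13 in knockdown (1.99, SE 0.15). NCF1, a cytosolic activator of the same enzyme that has near-identical pseudogene copies, rose by 0.90 (SE 0.12). Of 9 oxidase genes 3 rose and 0 fell, and without knockdown 2 only 1 was called. LYZ, the lysozyme gene, had 14.99 and 15.36 against 17.13 and 17.07 (1.92, SE 0.22). The serine proteases of primary granules went the other way: CTSG had 11.37 and 11.73 against 10.71 and 10.74 (-0.82, SE 0.12), PRTN3 15.82 and 16.11 against 15.21 and 15.17 (-0.78, SE 0.14), and ELANE 14.22 and 14.48 against 13.77 and 13.80 (-0.56, SE 0.14). Every knockdown library was below both controls for these proteases, which promyelocytes make. MPO, of the same granules, had a difference of -0.19 (SE 0.10) that did not pass. The 4 granule calls downward, CST7 included, were 2 without control 2 and 0 without either knockdown library.

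Lysosomal genes rose in 27 of 53 and fell in 0, with a median log2 difference of 0.47 that lay between 0.46 and 0.48 when any 1 of the 8 libraries was left out. DNASE2, the acid nuclease that digests engulfed DNA, had log2 values of 9.01 and 9.21 in control and 11.13 and 11.21 in knockdown (2.06, SE 0.12). GRN, which encodes progranulin, had 13.46 and 13.51 against 14.77 and 14.73 (1.26, SE 0.10), and FUCA1, a glycosidase, 10.60 and 10.63 against 11.68 and 11.67 (1.06, SE 0.10). Replicates agreed closely in these genes, and the groups were separate. The cathepsin genes CTSD (1.13, SE 0.11) and CTSB (0.89, SE 0.10) and the galactosidase gene GLB1 (0.85, SE 0.10) rose as well, as did the ceramidase gene ASAH1 (1.56, SE 0.20) and the sorting receptor gene SORL1 (1.71, SE 0.22). The members called were 22, 18, 10 and 8 with omission of control 1, control 2, knockdown 1 or knockdown 2, in that order.

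TFEB and its relatives bind the CLEAR element of lysosomal genes. The core letters TCACGTGA, which contain the E-box CACGTG and read the same on both strands, were found in 3 of 18 lysosomal genes that rose and had a window (16.7%), in 2.00% of genes tested and in 1.04% of all windows. The shorter E-box was found in 6 of the 18 (33.3%), which include the windows with the core. GAA, the acid glucosidase gene (chr17:80101331-80101630, plus strand), rose by 0.95 on the log2 scale (SE 0.13, not called without either knockdown library) and holds 2 core matches before its start site, shown in capitals.
GAA: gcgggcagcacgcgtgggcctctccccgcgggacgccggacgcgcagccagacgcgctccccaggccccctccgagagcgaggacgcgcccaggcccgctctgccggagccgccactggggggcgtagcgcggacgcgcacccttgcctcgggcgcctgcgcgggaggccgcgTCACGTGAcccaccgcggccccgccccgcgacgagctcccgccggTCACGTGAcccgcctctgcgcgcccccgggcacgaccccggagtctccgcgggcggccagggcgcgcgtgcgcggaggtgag

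**Figure D5:**
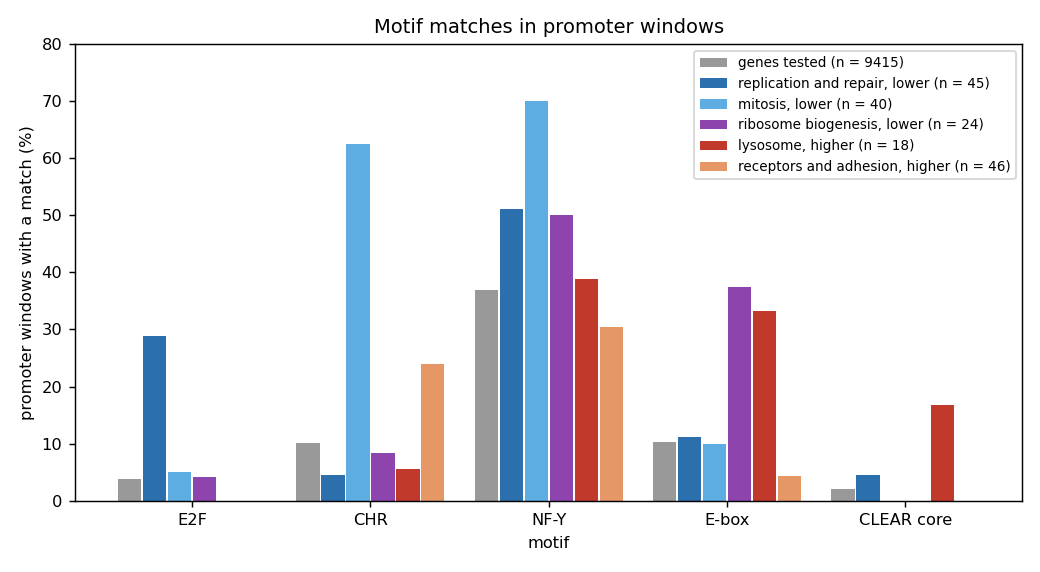
Percentage of 300-base promoter windows with at least 1 match of each motif, for genes tested (grey) and for 5 sets of called genes. Uncalled members of the same lists have no bars of their own. The E2F bar is tallest for replication and repair genes (28.9%), the CHR and NF-Y bars for mitotic genes (62.5% and 70.0%), and the E-box bars for ribosome biogenesis and lysosomal genes (37.5% and 33.3%).

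Of 31 transcription factors of the myeloid lineage tested, 3 rose (9.68%) and 1 fell (3.23%), beside 5.35% and 7.45% of all genes. CEBPE, a factor of late granulocyte maturation, had log2 values of 5.98 and 6.03 in control against 6.84 and 6.89 in knockdown (0.86, SE 0.11). EGR2 (0.65, SE 0.15) and KLF10 (0.53, SE 0.12) rose too. The gene that fell was CEBPZ (-0.63, SE 0.10), whose protein works in the nucleolus. SPI1, which encodes PU.1, had 9.45 and 9.17 against 9.74 and 9.27, and CEBPA 8.06 and 8.21 against 8.45 and 8.21, so groups overlapped in both. The PU.1 letters GAGGAAGT, on both strands, were present in 4 of 46 windows of receptor, adhesion and oxidase genes that rose (8.70%), in 2.66% of genes tested and in 2.54% of all windows. The share was larger in some other called sets, 3 of 24 windows of ribosome biogenesis genes that fell (12.5%) and 2 of 14 of interferon genes that rose (14.3%). Of 23 HOXA genes and regulators of KMT2A-rearranged leukemia 5 fell (21.7%, beside 7.45% of all genes) and 0 rose. SATB1 had 11.52 and 11.36 against 10.47 and 10.55 (-0.93, SE 0.10), HOXA9, the homeobox gene that KMT2A fusions keep on, 11.33 and 11.42 against 10.65 and 10.71 (-0.70, SE 0.09), and MEF2C 11.88 and 11.65 against 11.05 and 10.98 (-0.75, SE 0.14). MEIS1, the cofactor of HOXA9, had a difference of -0.15 (SE 0.15) and FLT3 one of -0.43 (SE 0.15), neither of which passed. Without knockdown 1 or 2 only 1 of the 5 was called each time, and 1 of the 3 factors that rose, CEBPE.

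Of 100 interferon and antigen presentation genes tested, 21 rose (21.0%, beside 5.35% of all genes) and 0 fell, with a median log2 difference of 0.20. OAS1, a sensor of double-stranded RNA that activates RNase L, had log2 values of 7.39 and 7.52 in control and 8.49 and 8.47 in knockdown (1.02, SE 0.11). OAS2 had 6.88 and 6.82 against 7.72 and 7.71 (0.87, SE 0.11), and the factor genes IRF9 7.14 and 7.25 against 7.87 and 7.93 (0.70, SE 0.10) and STAT2 10.10 and 10.41 against 11.02 and 11.03 (0.77, SE 0.11). In all 4 the groups were separate. IFI16 (0.74, SE 0.11), IFIT3 (0.64, SE 0.12), RSAD2 (0.60, SE 0.11) and IRF5 (0.82, SE 0.10) rose too. Common members of the response did not pass: ISG15 was at 7.33 and 7.91 against 7.68 and 7.81, inside its controls, and MX1 differed by 0.16 (SE 0.14). SAMHD1, a nucleotide hydrolase, had 8.98 and 8.09 against 9.85 and 9.70, so its controls lay far apart (1.24, SE 0.30). The ISRE motif, GAAA repeated after a gap of 2 free bases, searched on both strands, was in 2 of 14 windows of the genes that rose (14.3%), in 3.01% of genes tested and in 3.65% of all windows. The genes called were 14, 12, 3 and 4 with omission of control 1, control 2, knockdown 1 or knockdown 2, in that order.

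Inflammatory signalling genes moved both ways. Of 18 genes of the NF-kB pathway 2 fell (11.1%) and 1 rose (5.56%), and of 23 immediate early genes 2 fell (8.70%) and 0 rose. These shares were not far from those of all genes, 7.45% lower and 5.35% higher. NFKBIA, the inhibitor that NF-kB itself induces, had log2 values of 13.19 and 13.34 in control and 12.35 and 12.42 in knockdown (-0.88, SE 0.11), and NFKBIZ 10.24 and 9.87 against 9.40 and 9.44 (-0.64, SE 0.13). JUN (-0.65, SE 0.14) and the phosphatase gene DUSP1 (-0.58, SE 0.12) fell, while TNF (-0.04, SE 0.12), EGR1 (-0.05, SE 0.11) and FOS (0.12, SE 0.10) did not pass. Of 22 chemokine, interleukin 1 and other cytokine genes 5 rose (22.7%, beside 5.35% of all genes) and 1 fell. TNFSF13B, which encodes the B cell survival factor BAFF, had log2 values of 11.19 and 11.35 in control and 11.78 and 11.83 in knockdown (0.53, SE 0.10). IL16 (0.60, SE 0.13), the death ligand gene TNFSF10 (0.47, SE 0.13), the interleukin 1 antagonist gene IL1RN (0.42, SE 0.10) and IL1B (0.30, SE 0.07) rose too, and the chemokine gene CXCL10 fell by 0.72 (SE 0.18). Of the 5 calls upward 1 was left without control 1, 2 without control 2 and 0 without either knockdown library. The CXCL10 call was lost without any 1 of the 4 libraries, that of NFKBIA without knockdown 1 (limma adjusted p of 0.0548), and those of JUN and DUSP1 without either knockdown library and without control 1.

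Metabolic genes were divided. Of 77 nuclear-encoded respiratory chain genes 9 fell (11.7%, beside 7.45% of all genes) and 0 rose, with a median log2 difference of -0.26. NDUFA5 led them (11.87 and 12.09 in control against 11.33 and 11.33 in knockdown, -0.64, SE 0.10). Of 13 mitochondrially encoded genes limma called 0, with 1 at an unadjusted p under 0.05 and 1 called in the authors' deposited table, and the median was 0.20. Without control 2 and control 1 in turn the former median was -0.13 and -0.39 and the latter 0.41 and -0.02, so the sign of the latter rests on 1 library. Respiratory chain calls numbered 1 without control 2 and 0 without either knockdown library. Of 38 glycolysis and hypoxia genes 7 fell (18.4%) and 4 rose (10.5%), beside 7.45% and 5.35% of all genes. LDHA, which makes lactate, had 13.71 and 13.84 against 13.12 and 13.11 (-0.66, SE 0.10), and the collagen hydroxylase gene P4HA1 10.01 and 9.95 against 9.02 and 8.93 (-1.003, SE 0.12). HK2, a hexokinase gene, rose (0.77, SE 0.14). Among 15 glutamine and cystine genes 2 fell (13.3%) and 1 rose (6.67%). The glutamine carrier SLC38A1 had 10.41 and 10.20 against 9.12 and 9.26 (-1.11, SE 0.11), and the cystine carrier SLC7A11 7.99 and 7.90 against 8.67 and 8.72 (0.75, SE 0.10). GPT2, a transaminase gene of glutamine use, had a difference of -0.97 (SE 0.30) that did not pass (limma adjusted p of 0.0689), and the main glutamine transporter SLC1A5 one of -0.39 (SE 0.18). Without either knockdown library P4HA1 and SLC38A1 were the calls left in these 2 lists.

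Sterol and lipid storage genes gave calls in both directions, 3 of 36 up (8.33%) and 4 down (11.1%), shares not far from those of all genes (5.35% and 7.45%). MSMO1, a late enzyme of cholesterol synthesis, had log2 values of 9.26 and 9.36 in control and 10.10 and 10.13 in knockdown (0.80, SE 0.09), and HMGCS1, an early one, 10.52 and 10.54 against 9.74 and 9.86 (-0.73, SE 0.10). The nuclear receptor gene PPARG (5.59 and 5.60 against 6.34 and 6.30, 0.73, SE 0.10) and the lipid droplet gene PLIN2 (0.58, SE 0.13) rose, and the fatty acid carrier gene FABP5 (-0.74, SE 0.11) and the sterol acyltransferase gene SOAT1 (-0.65, SE 0.10) fell. Without either knockdown library 1 gene was called in each direction.

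Stress granule, vesicle and death genes included some large decreases among smaller changes. G3BP1 and G3BP2, the paralogues that nucleate stress granules, were the 2 genes that fell among 37 of RNA granules (5.41%). Only 1 of the 37 rose (2.70%), beside 7.45% lower and 5.35% higher of all genes. G3BP2 (chr4:75642782-75724525, minus strand) had log2 values of 11.65 and 11.47 in control and 10.06 and 10.11 in knockdown (-1.48, SE 0.12), and G3BP1 12.66 and 12.62 against 11.61 and 11.67 (-1.0005, SE 0.08). Both were called also without any 1 of the 4 libraries. In rescue G3BP2 stood at 10.64 and 10.74 and in mutant rescue at 10.23 and 9.96, all below both controls. Of 39 SNARE, annexin and calcium-binding trafficking genes 5 fell (12.8%) and 6 rose (15.4%). Beside SRI and VAMP8, the sorcin relative PDCD6 had 12.17 and 12.40 against 11.20 and 11.15 (-1.11, SE 0.11) and ANXA4 11.59 and 11.74 against 10.83 and 10.72 (-0.89, SE 0.10). Other annexins rose, ANXA2 (0.48, SE 0.10), ANXA1 (0.54, SE 0.15) and ANXA6 (0.48, SE 0.12), and the 6 calls upward were 0 without either knockdown library and without control 1. Of 33 BCL2 family and death receptor genes 3 fell (9.09%) and 1 rose (3.03%), not far from the shares of all genes (7.45% and 5.35%). FADD (9.14 and 9.15 against 7.73 and 7.86), BIK (-0.65, SE 0.14) and BID (-0.49, SE 0.10) fell. BCL2A1, an antiapoptotic member of myeloid cells, rose (0.54, SE 0.12). BCL2 and MCL1 had differences of -0.34 (SE 0.17) and 0.58 (SE 0.20) that did not pass. Without either knockdown library FADD was the call left in this list.

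The largest changes were also read in the other conditions of the study. SRI stood at 8.62 and 8.47 in rescue and 8.59 and 8.79 in mutant rescue, far below both controls. PCSK5 was at 11.60 and 12.32 in rescue and 13.55 and 13.93 in mutant rescue, and LYZ at 16.66 and 16.88 and at 17.86 and 18.51, all above the controls of the same genes. These comparisons share the control libraries with those above, so the values are given side by side without a further test.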

How the data were processed

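Polyadenylated RNA of 8 libraries was analysed from 1 table of the whole series. Per the file headers, the authors made it with HOMER's getDiffExpression.pl from a gene table of all 8 libraries. Trim Galore, kallisto and HOMER, and the build GRCh38, are given per the submitters' processing notes, without roles or versions. The library columns are deposited as log2 values, in which low genes were drawn together, so fold changes of low genes are understated. Each of the 25 largest called increases and decreases was smaller here than the authors' deposited fold change, high genes included. LYZ had 1.92 here against 2.25, and IGF2BP2 -0.67 against -0.87. The cause at higher levels was not tested. The authors' deposited log2 fold changes and adjusted p-values were used only where named. Counts are not used here, so depth is unknown and no counting error is given. Of 35370 genes listed, 10937 were at 0 throughout, 26 bore a number as symbol and 1 bore none.

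The values were tested as deposited with limma 3.58.1 in R 4.3.3, in a model of group means over all 8 libraries (4 residual degrees of freedom, empirical Bayes moderation with a mean trend). A gene was kept where its linear value reached 1 ppm of the library sum in 2 or more libraries, and calls have a Benjamini-Hochberg adjusted p under 0.05 over 13016 genes. On data simulated for this comparison with 13016 genes, 40.9% of genes changed by 0.5 log2, 96.9% of those changed by 1 and 100% of those changed by 2 were recovered, and unchanged genes made up 7.56% of the calls. Groups and replicate numbers came from the sample titles. The comparison, its 57 gene lists (1585 genes, of which 1583 are in the table, 50 of them under an older symbol) and its tests were chosen with earlier results of these data known. A list is described by its counts and median beside all genes, with no test of the list. The text names IGF2BP2, PRMT6 and MFSD2A, genes among the 25 largest called increases and decreases (groups separate, at least 5 ppm in the higher group), up to 6 called members per list and direction with the smallest adjusted p, the highest member where none is called, and members central to a list. Exceptions, chosen after their values were seen, are PLK1, AURKB, GAA, ASAH1, SORL1, RMI1, HNRNPA2B1 and others of the largest changes where they recur in lists. Positions are from GENCODE v29 and promoter windows from RefSeq (GRCh38.p14), which held 9415 (72.3%) of the genes tested. Alternatives were other filters, pseudocounts, scalings, models and each library left out. Some genes are not reported here.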

Additional observations from a re-analysis of the deposited data

How the results depend on the processing

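With 2 libraries per group and unknown depth, each change rests on the 4 libraries compared, and its SE on the spread within all 4 groups. Replicates differed with an SD of 0.232 (log2) in rescue and 0.303 in mutant rescue, more than in control (0.212) and knockdown (0.148). Leaving out 1 of the 8 libraries gave log2 changes of -0.70 to -0.64 for IGF2BP2 in knockdown against control (not called without any 1 of the 4 libraries compared), 101 to 1019 genes higher in knockdown, 71 to 1340 genes lower in knockdown, 13 to 130 cell cycle members lower, 29 to 107 monocyte members higher, 3 to 26 interferon members higher and 3 to 135 biosynthesis members lower. The lowest counts came without a knockdown library, and the cause was not tested. Leaving out any library leaves 1 sample in its group, which is assumed to vary like the other groups. With no filter on low values, which tests more genes, 591 genes were lower in knockdown, and 58 biosynthesis members lower and 12 interferon members higher (479 genes were higher). Fitting the control and knockdown groups alone called 1179 genes higher in knockdown, and 1439 lower. By the adjusted p of the authors' deposited table, the genes lower in knockdown numbered 1739 and the biosynthesis members lower 196, and the cause was not tested.

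Of the 169 called genes named here, 0 changed direction under any alternative. Calls were kept for 146 with no filter, 162 with quantile normalization, 164 each with median centring and a pseudocount of 32, 165 without the mean trend, 163 in the authors' deposited table, all 168 tested with a 5 ppm filter, and all 169 with a pseudocount of 1, a replicate block and both groups alone. They were kept for 135 and 127 without control replicate 1 and 2, and for 76 and 78 without knockdown replicate 1 and 2. Signs turned for genes that were not called. After quantile normalization AURKA was at 0.0774, EGR1 at 0.0812 and TNF at 0.0195. With 1 library left out these genes crossed 0: FTO (-0.17 to 0.00758), YTHDF1 (-0.0541 to 0.237), AURKA (-0.052 to 0.0484), MKI67 (-0.647 to 0.126), SPI1 (-0.0412 to 0.426), EGR1 (-0.124 to 0.0253), CD14 (-0.172 to 0.0900), CD163 (-0.066 to 0.229), ITGAM (-0.235 to 0.72), TNF (-0.112 to 0.0277) and ISG15 (-0.16 to 0.418).

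The replicate numbers were not taken to pair the samples: the correlation of deviations of same-numbered libraries was -0.0212 for control and knockdown, and between 0.0198 and 0.414 (knockdown and rescue) for the other pairs of groups. A fit with the replicate number as a block gave 786 genes higher and 1000 lower, and the IGF2BP2 change of -0.67 was called.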

Other observations

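Some of the largest changes concerned genes outside the gene lists of the report. COLQ, which encodes the collagen tail that anchors acetylcholinesterase, had log2 values of 8.81 and 8.87 in control and 10.36 and 10.34 in knockdown (1.51, SE 0.12). PLXDC2, a membrane protein gene, had 9.16 and 9.10 against 10.97 and 11.02 (1.86, SE 0.09), the smallest SE among the 10 genes named here. IPCEF1 had 7.75 and 7.58 against 9.40 and 9.51 (1.78, SE 0.14), and the formin gene FMNL3 8.02 and 7.71 against 9.22 and 9.39 (1.44, SE 0.15). The groups were separate in all 4, which their selection required.

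Among decreases, STK26, a kinase of the germinal centre family, had log2 values of 10.42 and 10.25 in control and 9.05 and 8.998 in knockdown (-1.31, SE 0.13). NXT2, a nuclear export factor gene, had 11.35 and 11.47 against 10.25 and 10.16 (-1.21, SE 0.12), and TAF9B, a subunit of the transcription factor TFIID, 8.94 and 8.95 against 7.71 and 7.76 (-1.21, SE 0.15). ICMT, which methylates prenylated proteins such as RAS, had 10.28 and 9.95 against 8.90 and 8.99 (-1.17, SE 0.18). ALDH1A3, which makes retinoic acid, had 9.15 and 8.89 against 7.59 and 7.58 (-1.44, SE 0.16), and the neuropeptide gene GAL 7.90 and 8.11 against 6.95 and 6.66 (-1.20, SE 0.22). Each knockdown library lay below both controls in these genes, a separation that their selection required. Of genes called higher 640 are protein coding in GENCODE v29 and 43 are not in it, and of genes called lower 926 and 39.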
